A study of Mus musculus with 21 samples.

Results

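The genes described here are the mouse genes whose symbol is Mrpl or Mrps followed by a number and at most 1 letter, the naming pattern of mitochondrial ribosomal proteins. There were 77 of them, and each was listed in all 3 expression tables, among 12404 genes listed in at least 1 table and 10238 listed in all 3. By textbook assignment 50 encode proteins of the large subunit of the mitochondrial ribosome (Mrps18a and Mrps30 among them, despite their names) and 26 proteins of the small subunit. The remaining gene, Mrps36, was named as a ribosomal protein and is now known as a part of the oxoglutarate dehydrogenase complex. The members lie on 17 chromosomes.

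Mitochondrial ribosomes translate the few mRNAs encoded by mitochondrial DNA, all of them for subunits of the respiratory chain and the ATP synthase. Their RNAs are made in the mitochondrion, whereas all their proteins are encoded in the nucleus, translated in the cytosol and imported. Some of these proteins descend from bacterial ribosomal proteins (48 of the 77 by the assignment used), and the others (29, counting Mrps36) have no bacterial counterpart. The stalk of the large subunit recruits translation factors, the exit tunnel releases the new protein at the inner membrane, and the small subunit holds the mRNA and decodes it.

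RNA had been sequenced from embryonic fibroblasts (MEFs) of ICR mice, taken from embryos of day 13.5 and used at passage 2, and from the same kind of cells on the way to induced pluripotency. The second kind, labelled SKOM, had received retroviruses for Sox2, Klf4, Oct4 and c-Myc and was harvested at day 5, either in mouse embryonic stem cell medium (Vc-) or in that medium with vitamin C (Vc+). Each culture also carried further retroviral constructs, and the treatment protocol gives an infection of 48 hours. The control was Flag+shLuc, and the others were Dnmt1 (the maintenance DNA methyltransferase), shDnmt1 (a hairpin against it), Tet1CD (spelled Tet1-CD in MEFs, from Tet1, which oxidises 5-methylcytosine) and shp53 (a hairpin against the p53 gene). Each SKOM table held 1 library each of Flag+shLuc, Dnmt1, shDnmt1, shp53+shDnmt1, Tet1CD, Tet1CD+Dnmt1 (spelled Dmnt1 in the label) and Tet1CD+shDnmt1. The MEF table held 1 library each of Flag+shLuc, Dnmt1, shDnmt1, shp53, shp53+shDnmt1 and Tet1-CD, and a library labelled 5C with Flag+shLuc, whose meaning the labels do not give. Every combination was sequenced once. The labels do not tell whether the cells were cultured separately, and the p-values speak only of the scatter among these libraries, which may be technical.

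The values are whole numbers normalized within each table, and depth is unknown. The median gene stood at 208 in 6 MEF libraries, at 180 in every Vc- library and at 226 in every Vc+ library, so levels were compared only within a table. Trp53 was 157 and 186 in the MEF libraries with shp53, against 1008 in the MEF control. In SKOM cells it was 453 (Vc-) and 621 (Vc+) with shp53+shDnmt1, against 810 and 1304 with shDnmt1, and Dnmt1 was lower with shDnmt1 in all 3 tables. The libraries with Dnmt1 alone had Dnmt1 values of 975, 1001 and 2381, close to 957, 984 and 2346 in the matching controls. Dnmt1 was 778 (Vc-) and 1224 (Vc+) with Tet1CD+Dnmt1. With Tet1CD alone it was 967 (Vc-), 1080 (Vc+) and 458 (MEFs). The Tet1CD calls, group overlaps and differences between members in SKOM cells are also given without the libraries labelled Dnmt1, those with Tet1CD+Dnmt1 included. The 5C library stood apart from the other MEF libraries and is described by itself. Values are relative to the other genes of a library, and fewer cells of a type and less RNA per cell cannot be told apart in bulk RNA.

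In the 6 MEF libraries other than 5C, the members' mean values ran from 43.7 for Mrpl55 to 549.2 for Mrps18b, with a median of 187.2. Over the 7 libraries of a table they ran from 37.9 (Mrpl55) to 501.0 (Mrpl12) in Vc- cells and from 75.1 (Mrps16) to 843.1 (Mrpl12) in Vc+ cells. Most members were therefore genes of middling abundance: 28 of 77 in Vc- cells and 40 of 77 in Vc+ cells had a mean above that of the table's median gene. Per kb of exon, Mrpl12, the flexible stalk protein, ranked first in both SKOM tables (327.0 per kb in Vc- and 550.4 per kb in Vc+), and Mrpl41 ranked first in the 6 MEF libraries (325.8 per kb). The reading strand is not given, and 19 members overlap a coding gene on the opposite strand and 3 one on the same strand, so their values can hold reads of the neighbour.

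The comparison of SKOM cells with and without Tet1CD asks how these genes respond to a DNA demethylating construct during reprogramming. Without vitamin C, the 77 members summed to 11255, 11656 and 12437 where Tet1CD was present (3 libraries) and to 12828 to 14219 where it was not (4 libraries). In Vc+ cells the sums were 16787, 17183 and 17373 with Tet1CD and 20645 to 23647 without it. The groups did not overlap in either medium, and the libraries with Tet1CD were the lower ones in both.

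In the additive model over the 14 SKOM libraries, 47 of 77 members fell with Tet1CD and none rose (limma, adjusted p under 0.05), where 45.2% of all genes tested passed it, 24.9% falling and 20.3% rising. The estimate was negative for 72 members, with a median of -0.29 on the log2 scale against -0.04 over all genes. Of the large subunit's genes 33 of 50 fell, with a median of -0.30, and of the small subunit's 13 of 26, with a median of -0.26. The bacterial-type genes fell in 27 of 48 cases and the mitochondria-specific ones in 20 of 29. When the 4 libraries labelled Dnmt1 were left out, 18 members fell, and 35 to 46 fell when any 1 library was left out. The shares of all genes in these settings are not given here, so the lower counts cannot be read as particular to the members.

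**Figure D1:**
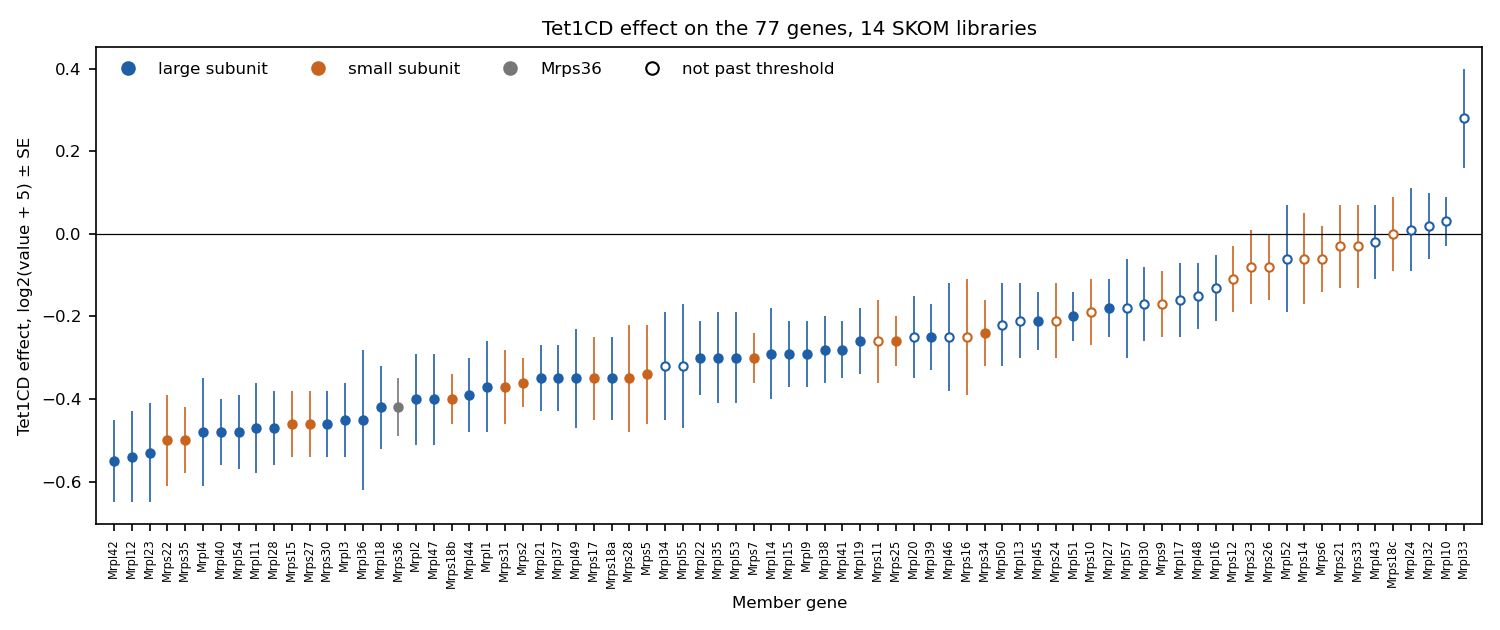
Estimated effect of Tet1CD in SKOM cells for each of the 77 genes (log2 scale, points with standard errors, ordered by size; additive model over 14 libraries). Filled points passed the threshold; 72 of 77 estimates lie below 0, and the lowest is -0.55 (Mrpl42).

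The largest fall was that of Mrpl42 (ENSMUSG00000062981, mm10 chromosome 10, 95480806 to 95501927), a mitochondria-specific protein of the large subunit. Without vitamin C it read 223, 229 and 240 when Tet1CD was present and 268, 280, 319 and 379 when absent. In Vc+ cells they were 262, 327 and 350 with Tet1CD and 519, 544, 553 and 553 without. The groups were separate in both media, and the effect was -0.55 ± 0.10 (SE, limma, adjusted p = 0.00111).

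Of the 5 stalk genes, 4 fell. Mrpl12 (ENSMUSG00000039640, chromosome 11, 120484613 to 120489065), which contacts translation factors, had values of 377, 407 and 450 with Tet1CD and 512, 572, 583 and 606 without it in Vc- cells. The Vc+ values were 486, 541 and 841 with Tet1CD and 869, 974, 1024 and 1167 without. The groups did not overlap, although the Tet1CD+shDnmt1 library at 841 lay close to the control at 869, and the effect was -0.54 ± 0.11 (limma, adjusted p = 0.00279). Mrpl54, another stalk protein, fell by 0.48 ± 0.09 (adjusted p = 0.00191) and Mrpl53 by 0.30 ± 0.11 (adjusted p = 0.0424). Mrpl11, at the base of the stalk, fell by 0.47 ± 0.11 (adjusted p = 0.00411), with 94, 102 and 106 against 147 to 214 in Vc+ cells and overlapping groups in Vc- cells.

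The fifth stalk gene, Mrpl10 (ENSMUSG00000001445, chromosome 11, 97041560 to 97049213), anchors Mrpl12 to the ribosome. It had values of 338, 354 and 374 with Tet1CD and 315, 327, 374 and 380 without in Vc- cells, and 456, 514 and 542 against 420, 461, 480 and 498 in Vc+ cells. The groups overlapped in both media, and the estimate was 0.03 ± 0.06 (limma, adjusted p = 0.666). With Mrps18c and Mrpl16 it was among the 3 members that varied least over the SKOM libraries, with a standard deviation of 0.113 on the log2 scale within tables. Mrpl36 (0.422), Mrpl11 (0.39) and Mrpl12 (0.384) varied most.

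Mammals carry 3 paralogs of the bacterial protein S18. Mrps18b, in the small subunit (ENSMUSG00000024436, chromosome 17, 35910379 to 35916389), had values of 295, 308 and 364 with Tet1CD and 400, 413, 430 and 453 without in Vc- cells. In Vc+ cells it had 397, 511 and 526 against 604, 630, 662 and 682, again without overlap, and the effect was -0.40 ± 0.06 (limma, adjusted p = 0.000755). Mrps18a, whose protein sits in the large subunit, fell by 0.35 ± 0.10 (adjusted p = 0.0148). Mrps18c (ENSMUSG00000016833, chromosome 5, 100798627 to 100804471) had values of 43, 44 and 50 with Tet1CD and 43 to 51 without in Vc- cells, and 72, 86 and 88 against 73 to 83 in Vc+ cells. Its groups overlapped in both media, and its estimate was 0.00 ± 0.09 (adjusted p = 0.985).

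The difference in response was tested for all 6 pairs within these 2 sets, by an exact two-sided permutation of the Tet1CD label within each medium (1225 arrangements, Benjamini-Hochberg over 6 pairs). This test was added after the values had been seen. The effect on Mrpl12 minus that on Mrpl10 was -0.67 on the log2 scale (exact permutation p = 0.000816, the smallest this test can give, adjusted p = 0.00245), and Mrpl11 differed from Mrpl10 by -0.64 (adjusted exact permutation p = 0.00326). Mrps18b differed from Mrps18c by -0.45 (adjusted exact permutation p = 0.00245) and Mrps18a from Mrps18c by -0.40 (adjusted exact permutation p = 0.00612). For Mrpl12 against Mrpl11 the difference was -0.02 (adjusted exact permutation p = 0.888) and for Mrps18b against Mrps18a -0.05 (adjusted exact permutation p = 0.847). Without the libraries labelled Dnmt1, the first 4 differences were -0.64, -0.73, -0.49 and -0.54, and the last 2 were 0.10 and 0.05. Each of the first 4 had an exact permutation p = 0.01, the smallest that 100 arrangements can give (adjusted exact permutation p = 0.015).

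**Figure D2:**
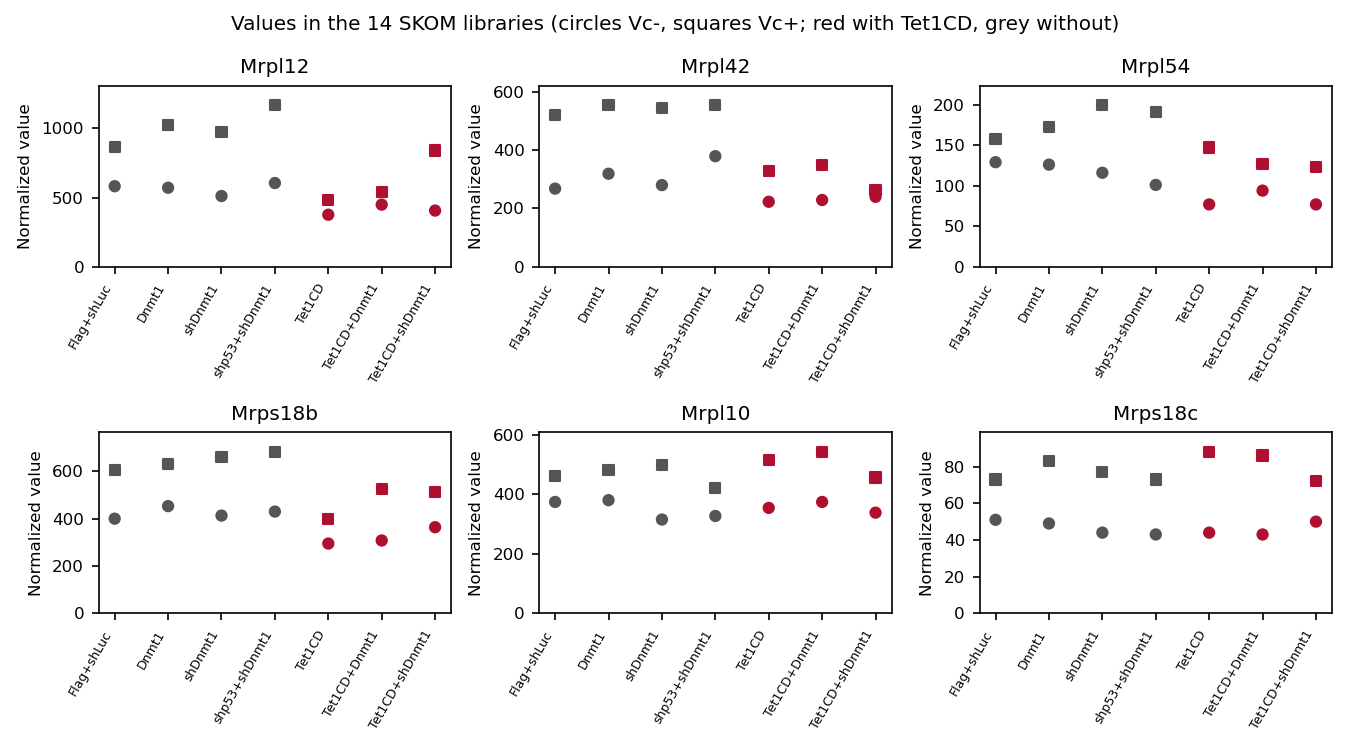
Normalized values of 6 members in the 14 SKOM libraries, 1 panel per gene, with the construct on the horizontal axis (circles Vc-, squares Vc+; red with Tet1CD, grey without). Mrpl12, Mrpl42, Mrpl54 and Mrps18b are lower in every library with Tet1CD than in every library without it in the same medium, while the groups of Mrpl10 and Mrps18c overlap.

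Other proteins of the large subunit moved with these. Mrpl23, at the exit tunnel, had values of 96, 110 and 126 with Tet1CD and 163 to 224 without it in Vc+ cells, and fell by 0.53 ± 0.12 overall (limma, adjusted p = 0.00383). Mrpl4, a conserved core protein, fell by 0.48 ± 0.13 (adjusted p = 0.01) and Mrpl40, of the central protuberance, by 0.48 ± 0.08 (adjusted p = 0.000851). Mrpl45, which tethers the ribosome to the inner membrane, fell by 0.21 ± 0.07 (adjusted p = 0.0292), a call that 7 of 20 alternatives lost. By site, 4 of 6 exit tunnel genes and 4 of 7 central protuberance genes fell.

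In the small subunit the mitochondria-specific proteins Mrps22 and Mrps35 fell most, by 0.50 ± 0.11 (limma, adjusted p = 0.00417) and 0.50 ± 0.08 (adjusted p = 0.000859). Mrps35 was 88, 88 and 93 with Tet1CD and 105 to 133 without it in Vc- cells, and 126, 126 and 138 against 193 to 248 in Vc+ cells, with no overlap. Mrps12, which takes part in decoding, had an estimate of -0.11 ± 0.08 (adjusted p = 0.296). Mrps36, which is no ribosomal subunit, fell by 0.42 ± 0.07 (adjusted p = 0.00115). The highest estimate of the 77 was that of Mrpl33, 0.28 ± 0.12 (adjusted p = 0.0878), whose annotated span overlaps coding genes on both strands.

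Over single libraries the direction was the same. In Vc- cells 29 of 77 members were lower in all 3 libraries with Tet1CD than in all 4 without (15.7% of all genes), and in Vc+ cells 46 of 77 (31.3%). No member was higher without overlap in either medium, against 15.3% and 25.0% of all genes. Without the libraries labelled Dnmt1 (2 with Tet1CD against 3 without), 44 members were lower in Vc- cells (21.6% of all genes) and 49 in Vc+ cells (35.1%), and none was higher (20.3% and 28.2% of all genes). With all libraries, the 21 members lower in both media were Mrpl2, Mrpl3, Mrpl4, Mrpl12, Mrpl21, Mrpl23, Mrpl28, Mrpl40, Mrpl41, Mrpl42, Mrpl44, Mrpl54, Mrps2, Mrps7, Mrps15, Mrps18b, Mrps25, Mrps27, Mrps30, Mrps35 and Mrps36. The share of all genes lower in both media was not computed, so this list only names the members.

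The other genes of the pathway were counted from fixed lists. Of 6 listed mitoribosome proteins with other names, 5 fell with Tet1CD and none rose, with a median of -0.41; Gadd45gip1, a large subunit protein, fell by 0.54 ± 0.08 (limma, adjusted p = 0.000556), Ict1, a peptide release factor built into the large subunit, by 0.49 ± 0.09 (adjusted p = 0.0016), and Dap3, of the small subunit, by 0.42 ± 0.10 (adjusted p = 0.00457). Of 23 genes for assembly and rRNA modification, 10 fell, with Eral1, the small subunit assembly GTPase, at -0.53 ± 0.10 (adjusted p = 0.00176). These counts stand beside the 24.9% of all genes that fell. Of 12 translation factors 4 fell, with Tufm, the mitochondrial elongation factor Tu, at -0.38 ± 0.07 (adjusted p = 0.00207). Of 16 mitochondrial tRNA synthetases 7 fell, and of 12 genes for mitochondrial transcription and RNA stability 5, Tfam at -0.44 ± 0.12 (adjusted p = 0.00918) among them. Of 9 nuclear regulators of mitochondrial genes 4 fell, with a median of -0.10. Myc, part of which came from the reprogramming virus, is among these 9 and these 4. No gene of these lists rose. Of 74 genes of the respiratory chain and ATP synthase, 26 fell and none rose, with a median of -0.19. Cytosolic ribosomal proteins were listed for only 4 genes, of which 3 fell with Tet1CD and none rose, with a median of -0.30 close to the members' -0.29. None of the 13 mitochondrially encoded mRNAs was found by name in the 3 expression tables, so they were not analysed.

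Several other measures moved with Tet1CD. All 15 of 15 markers of G2 and mitosis fell, with a median of -0.87, and their summed value in Vc+ cells was 5775 to 9591 with Tet1CD and 16088 to 21264 without. In Vc- cells these sums were 5054 to 6351 and 7098 to 10128. The macrophage markers listed in both SKOM tables (3 of 10: Cd68, Laptm5 and Ptprc) rose. Summed over the 4 markers listed in the Vc+ table, values were 1952 to 2614 with Tet1CD and 293 to 369 without. Over the 3 listed in the Vc- table they were 541 to 633 with Tet1CD and 258 to 337 without. Ptprc was listed at 0 in 2 SKOM libraries without Tet1CD. Of 12 fibroblast markers 6 rose and none fell, and of 6 epithelial markers 3 fell and 1 rose. Myc, part of which came from the reprogramming virus, fell by 1.15 ± 0.10 (limma, adjusted p = 4.3e-05). It stood at the Vc- table's ceiling of 19681 in all 4 Vc- libraries without Tet1CD. In Vc+ cells the other reprogramming factors were lower with Tet1CD without overlap: Klf4 was 3886 to 4142 against 7995 to 10302, Pou5f1 (Oct4) 3076 to 3259 against 4772 to 6109, and Sox2 2379 to 2500 against 3885 to 4583. In Vc- cells the groups of these 3 genes overlapped. The part of these measures in the members' fall was not tested.

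Promoter sequence is shown for members that fell and members that did not, since all of them encode parts of 1 ribosome, and Mrpl12 and Mrpl10 parts of 1 stalk. The sequences are from RefSeq (GRCm38.p6), each from 250 bases before the annotated start to 50 after it, printed 5′ to 3′ on the gene's strand, with motif matches in capitals. Their positions are chr11:120484387-120484686 (plus strand) for Mrpl12, chr10:95501900-95502199 (minus) for Mrpl42, chr17:35916391-35916690 (minus) for Mrps18b, chr11:97041332-97041631 (plus) for Mrpl10, chr5:100798509-100798808 (plus) for Mrps18c and chr7:78782881-78783180 (plus) for Mrps11. The motifs, searched on both strands, were the NRF1 half-site TGCGCA, the ETS core CCGGAA, the YY1 core AAGATGG, the E-box CACGTG and the Sp1 box GGGCGGG.
Mrpl12: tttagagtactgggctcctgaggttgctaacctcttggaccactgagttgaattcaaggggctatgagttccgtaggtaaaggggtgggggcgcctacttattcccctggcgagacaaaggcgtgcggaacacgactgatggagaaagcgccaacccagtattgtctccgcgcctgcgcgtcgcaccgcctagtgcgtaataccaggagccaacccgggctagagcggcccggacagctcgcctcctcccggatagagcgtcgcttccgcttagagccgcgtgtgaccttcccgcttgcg
Mrpl42: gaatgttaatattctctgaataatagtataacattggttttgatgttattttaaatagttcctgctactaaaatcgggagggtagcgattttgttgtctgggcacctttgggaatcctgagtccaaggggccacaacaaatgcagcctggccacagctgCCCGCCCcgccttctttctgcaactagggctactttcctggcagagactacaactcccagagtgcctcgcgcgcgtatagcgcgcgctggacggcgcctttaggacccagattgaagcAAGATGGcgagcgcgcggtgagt
Mrps18b: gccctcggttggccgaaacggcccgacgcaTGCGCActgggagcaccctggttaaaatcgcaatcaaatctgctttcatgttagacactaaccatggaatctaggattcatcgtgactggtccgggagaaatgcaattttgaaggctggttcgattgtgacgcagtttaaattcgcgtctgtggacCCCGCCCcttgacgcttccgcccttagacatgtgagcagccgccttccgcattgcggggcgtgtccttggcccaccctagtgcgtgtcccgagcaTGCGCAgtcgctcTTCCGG
Mrpl10: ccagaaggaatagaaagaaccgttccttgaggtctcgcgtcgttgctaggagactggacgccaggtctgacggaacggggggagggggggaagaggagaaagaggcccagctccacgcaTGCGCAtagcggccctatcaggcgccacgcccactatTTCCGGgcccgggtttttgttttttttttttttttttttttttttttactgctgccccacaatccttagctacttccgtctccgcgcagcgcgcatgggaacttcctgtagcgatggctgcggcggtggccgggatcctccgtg
Mrps18c: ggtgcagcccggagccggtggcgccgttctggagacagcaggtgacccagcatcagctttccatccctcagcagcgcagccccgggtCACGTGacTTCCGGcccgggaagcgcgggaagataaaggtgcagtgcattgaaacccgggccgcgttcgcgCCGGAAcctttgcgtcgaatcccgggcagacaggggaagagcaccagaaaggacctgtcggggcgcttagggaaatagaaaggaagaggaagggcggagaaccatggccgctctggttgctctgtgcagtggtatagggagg
Mrps11: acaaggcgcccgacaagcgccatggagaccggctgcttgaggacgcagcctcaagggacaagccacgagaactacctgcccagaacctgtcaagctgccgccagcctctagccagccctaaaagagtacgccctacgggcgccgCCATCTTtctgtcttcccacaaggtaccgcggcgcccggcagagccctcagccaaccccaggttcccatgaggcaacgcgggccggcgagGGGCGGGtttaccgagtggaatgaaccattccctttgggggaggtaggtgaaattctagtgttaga

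Of the 77 members, 68 had a promoter in the table. The ETS core was in 39 of these 68 (57.4%). It was in 34.0% of the 7715 genes listed in all 3 expression tables that had a promoter. Of all 27025 genes with a promoter, 16.7% held it. The NRF1 half-site was in 20 (29.4%), against 17.1% and 8.79%. The YY1 core was in 13 (19.1%), against 8.89% and 7.28%. The E-box, the site of Myc and related factors, was in 5 (7.35%), against 12.4% and 8.09%, and the Sp1 box in 29 (42.6%), against 55.3% and 27.9%. A match describes the letters only and is not evidence of binding.

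The motifs of the shown promoters are listed beside each gene's response, and so few sequences cannot tell whether the 2 go together. Mrpl12, which fell, held none of the 5 motifs in this window. Mrpl42, which fell, and Mrps11, which did not pass the threshold, each held a YY1 core and an Sp1 box. Mrps18b, which fell, held 2 NRF1 half-sites, an ETS core and an Sp1 box, while Mrpl10, which did not, held an NRF1 half-site and an ETS core. Mrps18c, at 0.00, held an E-box and 2 ETS cores. Of all members with an ETS core 20 of 39 fell with Tet1CD, and of those without one 19 of 29. For the NRF1 half-site the counts were 11 of 20 and 28 of 48, for YY1 8 of 13 and 31 of 55, for the E-box 3 of 5 and 36 of 63, and for Sp1 17 of 29 and 22 of 39.

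The Mrps11 sequence also spans the start of another member. Mrps11, of the small subunit, and Mrpl46, of the large subunit's central protuberance, lie head to head on chromosome 7, with 42 bases between the starts that the RefSeq windows use. Mrps11 had an estimate of -0.26 ± 0.10 for Tet1CD (limma, adjusted p = 0.0517) and Mrpl46 one of -0.25 ± 0.13 (adjusted p = 0.133). Neither passed the threshold. Both genes had separate groups in Vc- cells and overlapping ones in Vc+ cells, where Mrpl46 ran from 109 to 211 with Tet1CD and from 159 to 241 without it.

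The question whether vitamin C changes the response to Tet1CD was put to each table and to the difference between them. Fitted alone, the Vc- table gave 10 members that fell and none that rose (limma; 7.38% and 7.25% of all genes), with a median of -0.20, and in the Vc+ table there were 37 that fell and none that rose (23.6% and 20.7%), with a median of -0.38. In Vc- cells the largest falls past the threshold were those of Mrpl54 (-0.56 ± 0.10, adjusted p = 0.0176), Mrpl12 (-0.43 ± 0.08), Mrpl40 (-0.42 ± 0.10), Mrps30 (-0.40 ± 0.08), Mrps15 and Mrps18b (both -0.39), Mrpl39 (-0.38 ± 0.09) and Mrps10 (-0.33 ± 0.08). In Vc+ cells they were those of Mrpl4 (-0.79 ± 0.15, adjusted p = 0.00877), Mrpl42 (-0.78 ± 0.11), Mrpl36 (-0.74 ± 0.22), Mrpl23 (-0.70 ± 0.14), Mrps22 and Mrpl18 (both -0.68), Mrps35 (-0.67 ± 0.10) and Mrps27 (-0.65 ± 0.09). The Vc- calls went to 0 when any 1 of the Dnmt1, Tet1CD+Dnmt1, shDnmt1 or Tet1CD+shDnmt1 libraries was left out, and the Vc+ calls to 5 without Dnmt1 or without Tet1CD+Dnmt1. Shares of all genes with these libraries left out are not given here.

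Tested as an interaction, the fall was larger with vitamin C for 4 members and smaller for none (limma; 8.28% of all genes had a lower and 8.57% a higher term). The median term over the members was -0.14, against -0.05 over all genes, and 54 of 77 terms were negative. Mrpl4 had the largest of the 4, at -0.62 ± 0.18 (adjusted p = 0.0454). Its values with Tet1CD were 175, 178 and 189 in Vc- cells, just below 192 to 225 without, and 158, 222 and 272 in Vc+ cells, well below 347 to 391. Mrpl18, of the central protuberance, had a term of -0.52 ± 0.14 (adjusted p = 0.0335). Mrpl37 and Mrpl38, both mitochondria-specific, had terms of -0.40 ± 0.11 (adjusted p = 0.0417) and -0.38 ± 0.11 (adjusted p = 0.0431). The 4 are 5.19% of the members, a smaller share than that of all genes with a lower term. For Mrpl18, Mrpl37 and Mrpl38 the groups overlapped without vitamin C and were separate with it. Leaving out any 1 library gave 0 to 7 such members, with 0 without each of the Vc- libraries Dnmt1, Tet1CD+Dnmt1, shDnmt1 and Tet1CD+shDnmt1. The number was 1 without the Flag+shLuc or Tet1CD library of either medium or the Vc+ libraries Dnmt1 or Tet1CD+Dnmt1, and 7 without the Vc+ libraries shDnmt1 or Tet1CD+shDnmt1. Shares of all genes with these libraries left out are not given here.

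**Figure D3:**
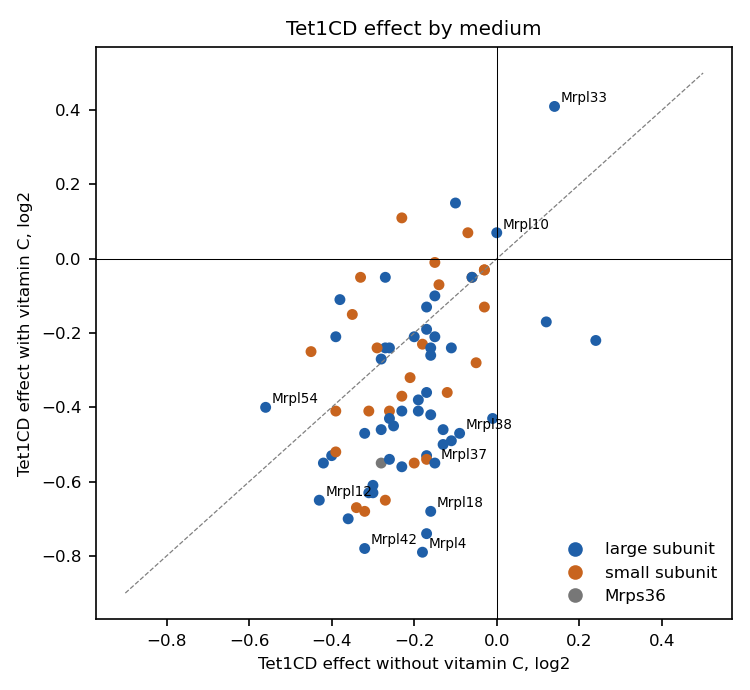
Effect of Tet1CD on each of the 77 genes without vitamin C (horizontal) and with it (vertical), both on the log2 scale from separate fits of 7 libraries. The dashed line marks equal effects; the 4 genes with an interaction past the threshold (Mrpl4, Mrpl18, Mrpl37, Mrpl38) lie below it.

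Dnmt1, shDnmt1 and shp53 gave no member past the threshold in SKOM cells (limma; over all genes 0.0% rose for each, and 0.0%, 0.0187% and 0.00934% fell). A lack of calls is not a lack of effect. In simulated data, the fits found 19.4% (Dnmt1), 20.9% (shDnmt1) and 2.99% (shp53) of changes of 0.3 on the log2 scale. For the interaction of vitamin C with shDnmt1 they found 2.99% of changes of 0.58. At an unadjusted p under 0.05, 3 estimates were higher and 0 lower with Dnmt1, against 0.439% and 0.345% of all genes. With shDnmt1 2 were higher and 1 lower (1.66% and 1.91% of all genes), and with shp53 5 were higher and 0 lower (4.13% and 6.41%). The smallest p-values for shDnmt1 were those of Mrps24 (-0.55 ± 0.11, adjusted p = 0.315), Mrps18b (0.21 ± 0.08) and Mrpl48 (0.25 ± 0.10). For shp53, which came only with shDnmt1 in 1 library per medium, they were those of Mrps17 (0.53 ± 0.16, adjusted p = 0.372), Mrpl19 (0.38 ± 0.13) and Mrpl11 (0.47 ± 0.17). For Dnmt1 they were those of Mrpl51 (0.22 ± 0.08), Mrps18b (0.18 ± 0.08) and Mrpl47 (0.30 ± 0.13). The interaction of vitamin C with shDnmt1 also gave no member (0.0% of all genes in either direction), and 3 terms, 2 higher and 1 lower, had an unadjusted p under 0.05 (1.84% and 1.97% of all genes): Mrpl49 (0.65 ± 0.21), Mrpl33 (-0.60 ± 0.26) and Mrpl12 (0.51 ± 0.23), each at an adjusted p = 0.937.

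Mrps24, of the small subunit, had the smallest p-value for shDnmt1 of the 77, and its values are given for all 3 tables. In Vc- cells it was 44, 36 and 46 in the libraries with shDnmt1 and 63 to 73 in the others, and in Vc+ cells 77, 65 and 73 against 82 to 110. In MEFs it was 29 with shDnmt1 against 64 in the control, and 47 with both hairpins against 50 with shp53 alone, so the second pair differed little. The groups were separate in both SKOM media. Mrps24 was picked by its p-value in these same libraries, so this separation adds no evidence. The gene did not pass the threshold, and the share of all genes with separate shDnmt1 groups was not computed.

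Vitamin C itself was read from 7 pairs of libraries with the same construct, as log2 ratios centred on the pair's median gene, with no test. Before centring, that median was 0.52 to 0.57. Both SKOM tables were normalized separately, so a shift from normalization and one from vitamin C cannot be told apart. No member passed 1.5-fold with the same direction in all pairs (1.22% of all genes were higher and 1.57% lower by that rule). The members' median ratio was 0.09. It was highest in the shDnmt1 pair (0.21) and the shp53+shDnmt1 pair (0.16), with 65 of 77 members above 0 in each, and lowest in the Tet1CD+Dnmt1 pair (-0.08), with 26 above 0. The highest members were Mrpl55 (median 0.42), Mrps16 (0.38), Mrps12 (0.34, above 0 in 7 of 7 pairs), Mrpl2 (0.31) and Mrpl49 (0.30), and the lowest Mrps21 (-0.35), Mrpl53 (-0.23), Mrpl20 (-0.22), Mrpl17 (-0.17) and Mrpl43 (-0.16, below 0 in 7 of 7 pairs). Uncentred, 49 members passed the same rule, but there the median gene of a pair already stood at 0.52 to 0.57, close to 1.5-fold. The share of all genes by the uncentred rule was not computed.

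SKOM cells were set against MEFs in the same way, over 5 pairs per medium. Without vitamin C, 2 members were higher and 2 lower by at least 1.5-fold in the median and in the same direction in all pairs (14.3% and 15.5% of all genes), and with vitamin C 9 were higher and 2 lower (16.0% and 18.9%). Mrpl12 was the highest in both, with a median ratio of 1.00 (0.60 to 1.05) without and 1.05 (0.47 to 1.38) with vitamin C. Mrps34 followed without vitamin C (0.66), and Mrps12 (0.86), Mrpl44 (0.82), Mrps35 (0.81) and Mrps27 (0.77) with it. Mrps6 was the lowest in both (-0.97 and -1.07), followed by Mrps10 (-0.68 and -0.67). The annotated span of Mrps6 overlaps 2 coding genes on the same strand, so its value may hold their reads. The members' median ratio was 0.00 without and 0.09 with vitamin C, and centring matters: uncentred, 1 was higher and 9 lower without vitamin C, and 22 higher and 1 lower with it. For these uncentred counts too, the share of all genes was not computed.

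In MEFs, shp53 could be read from 2 pairs of libraries that share none, over Flag+shLuc and over shDnmt1. In both pairs 20 of 77 members were higher by a log2 ratio of at least 0.32 and none was lower (14.6% and 14.8% of all genes), and the median was 0.24 against -0.01 over all genes. Mrpl12 was 338 in the control and 557 with shp53, and 301 with shDnmt1 and 491 with both hairpins, which are ratios of 0.71 and 0.70. Mrpl18 had 0.63 and 0.76, Mrps22 0.64 and 0.53, Mrpl42 0.46 and 0.65, and Mrps5 0.60 and 0.49. The lowest members were Mrps6 (-0.73 and -0.16), Mrps34 (-0.43 and -0.30), Mrpl24 (-0.54 and -0.19), Mrps21 (-0.46 and -0.13) and Mrpl17 (-0.38 and -0.17). All 15 markers of G2 and mitosis were higher by the same rule, with a median of 1.28, and their part in the members' higher values was not tested.

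The other MEF constructs moved few members. With shDnmt1, 3 were higher in both pairs (Mrpl52, Mrpl57 and Mrpl36) and 0 lower (3.61% and 3.9% of all genes). With Dnmt1, 2 were higher (Mrps16 and Mrpl52) and 3 lower (Mrpl40, Mrps24 and Mrpl34) in 1 pair (5.34% and 5.63%). With Tet1-CD, 3 were higher (Mrpl57, Mrpl36 and Mrpl52) and 3 lower (Mrpl21, Mrpl40 and Mrps22) in 1 pair (15.4% and 17.9%), with a median of -0.01. The same Tet1-CD library had all 15 markers of G2 and mitosis lower, with a median of -0.83, and all 5 listed macrophage markers higher. The Dnmt1 library also had all 5 macrophage markers higher than that control, with a median of 2.06. Their MEF sums were 228 in the control, 946 with Dnmt1, 983 with shDnmt1, 518 with shp53, 100 with both hairpins and 1382 with Tet1-CD. These MEF ratios have no replicate check, and those over the Flag+shLuc control share that library. The difference between MEFs and SKOM cells in the response to Tet1CD was not tested.

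**Figure D4:**
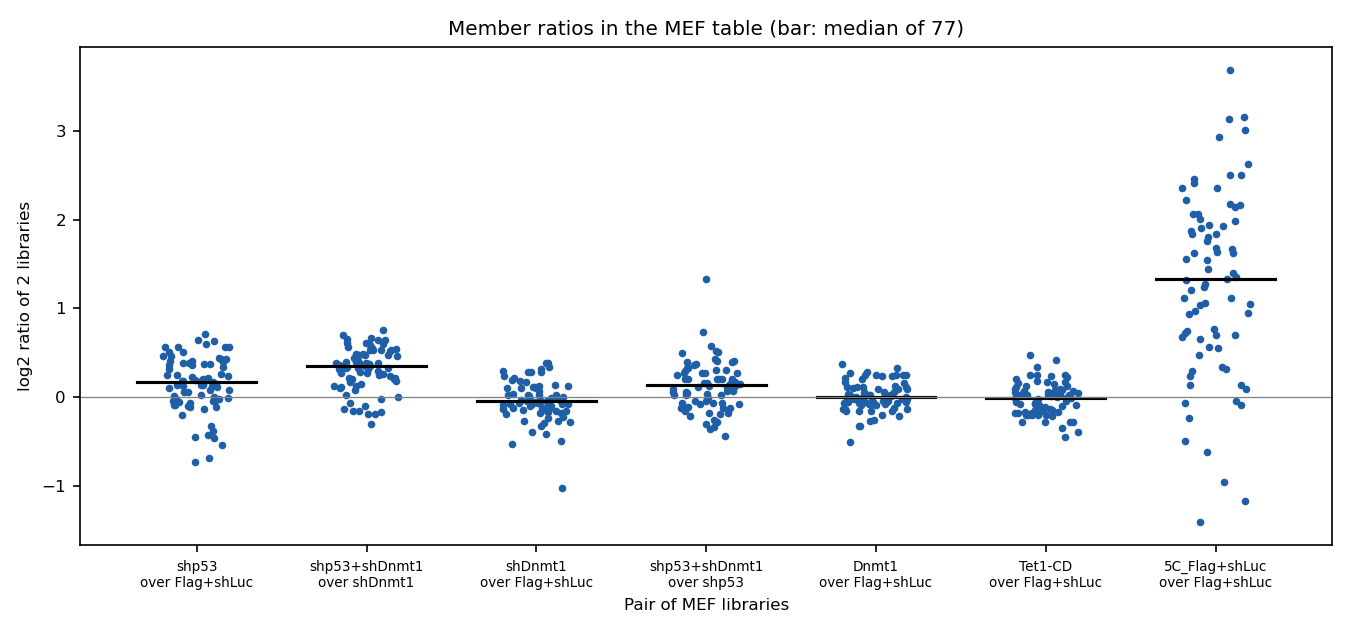
Log2 ratios of the 77 genes in pairs of MEF libraries, 1 point per gene, with a bar at the median. The medians of the shp53 pairs lie above 0, that of Tet1-CD is -0.01, and that of the 5C library is 1.33.

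The library labelled 5C, whose column header gives day 4, stood far from the other MEF libraries. Its members summed to 41480, against 15178 to 18631 in the other 6, and 64 of 77 members lay above all 6, 9 below and 4 within their range, where 36.3% of all genes lay above and 43.8% below. Against the Flag+shLuc MEF control, 62 were higher by a log2 ratio of at least 0.32 and 5 lower (36.7% and 45.0% of all genes), with a median of 1.33 against -0.14 over all genes. Mrpl52 was 1494 in 5C and 111 in the control (3.69), Mrpl48 978 and 105 (3.16), Mrps18c 685 and 74 (3.13), Mrps16 543 and 63 (3.01) and Mrpl23 854 and 108 (2.93). The 5 lower members were Mrps22 (-1.41), Mrps2 (-1.17), Mrps10 (-0.95), Mrps31 (-0.62) and Mrpl37 (-0.49).

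Gene length moved with this library over all genes. Genes with under 1.5 kb of exon had a median ratio of 1.33, those of 1.5 to 3 kb 0.44, and those of 3 kb and over -0.35. The members had medians of 1.64 (20 genes), 0.77 (27) and 1.55 (29) in the same classes, and so stood above all genes most in the longest class. Of 75 genes of the respiratory chain and ATP synthase, 66 were higher, with a median of 2.19, all 5 listed macrophage markers were higher, and 12 of 15 markers of G2 and mitosis were lower. Their part in the 5C values was not tested, and 1 library gives no replicate check.

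**Figure D5:**
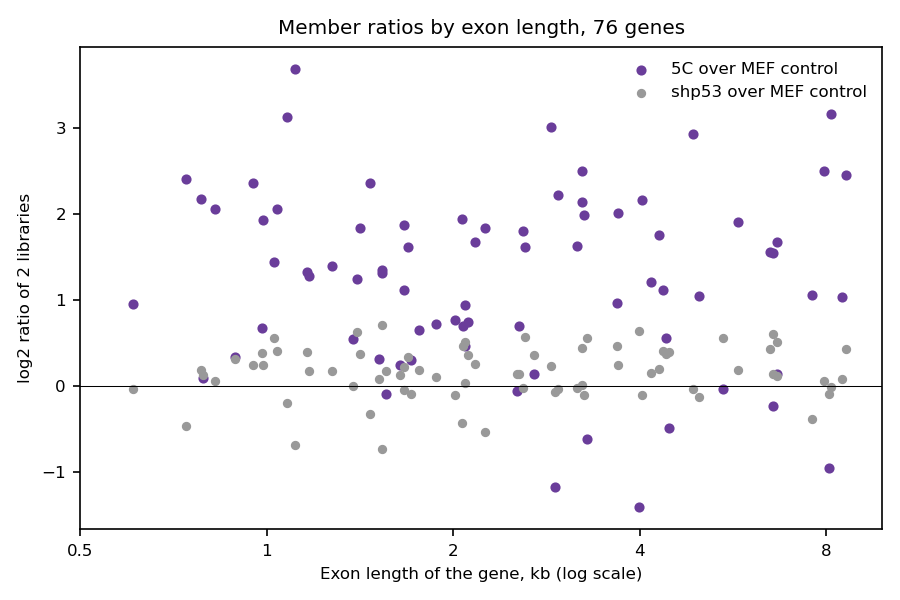
Log2 ratio of each member to the MEF control against its exon length (log axis), for the 5C library (purple) and the shp53 library (grey), 76 genes with a length. The 5C ratios spread from -1.41 to 3.69 and lie mostly above 0 at all lengths.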

How the data were processed

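The data were gene-level RNA sequencing values from 21 mouse libraries in 3 tables of 7. The authors deposited whole numbers, treated here as a score, which they had normalized to nearly the same sorted list within each table, so depth is unknown and no counting error was computed. Bowtie, RSEM and the mm10 build are listed, per the submitters' processing notes, with no versions. Neither strand setting nor normalization method is stated in the labels. The libraries were made from total RNA with a TruSeq RNA kit, per the labels' protocols. All value columns belonged to a sample (0 left over).

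Groups were taken from the titles. Each value was taken as log2 after adding 5. Genes averaging 10 or more were fitted with limma 3.58.1 (intensity trend, R 4.3.3). Benjamini-Hochberg adjustment ran over all genes, with an adjusted p under 0.05 as the threshold. An additive fit to all 14 SKOM libraries, with medium and each of the 4 constructs as terms, left 8 residual degrees of freedom. The model with vitamin C interactions had 4, and a fit to 1 SKOM table had 2. The residual spread holds departures from additivity as well as noise. Tables were normalized separately, so comparisons between tables are centred log2 ratios of libraries with the same construct, with no test. MEF comparisons are ratios of single libraries. The code was tested on simulated data.

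Gene models came from GENCODE M21 (mm10), in which 76 of 77 identifiers were found, and promoters from RefSeq on GRCm38.p6. The alternatives were a pseudocount of 1 or 20, no filter, a mean of at least 50, no intensity trend, each library left out, uncentred or jointly normalized ratios and, added after the data were seen, all libraries labelled Dnmt1 left out (for the Tet1CD results in SKOM cells only) and each construct pair left out.

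The members, the gene lists and the tests were chosen with earlier results of these data known. The genes named are, in each tested comparison, up to 8 members per direction with the largest change past the threshold (the 3 smallest p-values where none passed), in each comparison of ratios up to 5 per direction, the 3 members with the most and the 3 with the least spread, the Mrps18 paralogs, Mrpl10, Mrpl11, Mrpl12, Mrps12 and Mrpl45, and up to 3 genes of each other list. Mrpl33, Mrps11, Mrpl46, Mrps36 and a few members with the same direction in every pair are named outside this rule, chosen after their values were seen.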

Additional observations from a re-analysis of the deposited data

Results flagged for a closer look

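For 4 members the effect of Tet1CD differed between media in the interaction test (limma, Benjamini-Hochberg adjusted over all genes). The terms, Vc+ minus Vc- on the log2 scale, were -0.62 for Mrpl4, -0.52 for Mrpl18, -0.40 for Mrpl37 and -0.38 for Mrpl38. All 4 were the more negative with vitamin C, and 8.28% of all genes tested had such a term. No combination had more than 1 library, so no group was large enough to look for a library far from its own group.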

How the results depend on the processing

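With Tet1CD in SKOM cells, 47 to 49 members fell under the other pseudocounts, filters and the fit without intensity trend, 35 to 46 with 1 library left out and 18 with the libraries labelled Dnmt1 left out; 0 to 1 rose with 1 library left out. The 4 interaction calls were 0 without intensity trend and 0 without the libraries labelled Dnmt1, with 0 to 7 lower and 0 to 1 higher with 1 library left out. The interaction with shDnmt1 gave 0 to 1 higher. In Vc- cells alone 10 became 0 without intensity trend and 0 without the libraries labelled Dnmt1, and 0 to 12 fell and 0 to 1 rose with 1 library left out. In Vc+ cells alone 37 became 5 without the libraries labelled Dnmt1, and 5 to 37 fell and 0 to 1 rose with 1 library left out. Uncentred, 49 members were higher with vitamin C (median ratio 0.64); against MEFs 1 was higher and 9 lower without vitamin C, and 22 higher and 1 lower with it. With 1 pair left out, 2 to 4 were higher than in MEFs without vitamin C (4 without the Dnmt1 or the Tet1CD pair), and 7 to 13 were higher and 2 to 3 lower with it. The shares of all genes in these settings are not given here, so changes in the counts cannot be read as particular to the members. The causes were not tested, though fewer libraries leave fewer residual degrees of freedom. Of 53 results for single members over 945 alternatives, 806 kept their side of the threshold, 133 lost it, 6 gained it and 0 reversed. These totals include results not past the threshold, which could not lose it. A change of sign was counted as reversed only for results past it. Without the libraries labelled Dnmt1, 44 members in place of 29 were lower without overlap in Vc- cells. No paired analysis was possible because the labels give no replicate numbers; libraries were matched by construct only. Depth is unknown, so its effect on low values could not be set.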
